A study of Mus musculus with 7 samples.

Results

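The genes described here encode the subunits and assembly factors of oxidative phosphorylation. They were taken by symbol: every name in the tables that begins with Nduf followed by a, b, c, s or v, with Cox and a digit from 4 to 8, with Uqcr, with Atp5, or with Sdh followed by a, b, c or d. This gave 88 of the 12958 symbols measured. Of these, 36 are subunits of complex I, 4 of complex II, 8 of complex III and 15 of complex V, and 13 are subunits or tissue isoforms of complex IV. A further 10 are assembly factors and 2, Atp5s and Atp5sl, share the prefix without being subunits of ATP synthase. Ndufa4 and Ndufa4l2 carry complex I names but were placed with complex IV, where the protein of Ndufa4 belongs.

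Glomeruli, the capillary tufts where the kidney filters blood, were isolated from 7 male BALB-C mice at 14 weeks of age, and 1 RNA library was sequenced per animal. Knockdown mice (n = 3) were transgenic for an siRNA against Shroom3, whose protein binds actin at cell junctions. Littermates lacking the transgene served as controls (n = 4). Doxycycline was given to every animal of both groups, in its food and its water, starting at 8 weeks of age and lasting 6 weeks. Which promoter drives the transgene is not stated in the labels. The comparison of knockdown with control asks what glomeruli express differently when Shroom3 is targeted.

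Oxidative phosphorylation takes electrons from NADH at complex I and from succinate at complex II, passes them through coenzyme Q, complex III and cytochrome c to oxygen at complex IV, and uses the proton gradient made on the way to form ATP at complex V. The mitochondrial genome encodes a few central subunits, and nuclear genes encode the rest together with the factors that put the complexes together. In the kidney the proximal tubule is known for its dense mitochondria, while podocytes and glomerular endothelial cells hold fewer.

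Values are log2 expression as deposited, with library medians from 9.15 to 9.16, and a difference is knockdown minus control on that scale. Read depth is unknown, so counting error cannot be given. Shroom3 (chromosome 5, 92683435 to 92965318, GRCm38) stood at 10.80, 10.91 and 10.89 in the knockdown libraries, against 10.94, 10.85, 11.36 and 11.06 in the control libraries. These groups overlapped, and the difference did not pass (log2 fold change -0.19 ± 0.11 SE; adjusted p = 0.417 by limma, Benjamini-Hochberg), so this transcript did not check the labels. All 16 podocyte markers and all 17 proximal tubule markers were measured. Podocyte markers averaged 12.6 to 12.8 in knockdown and 12.8 to 13.2 in control libraries, and proximal tubule markers 12.8 to 13.2 in knockdown and 13.4 to 13.7 in control libraries, so the glomerular preparations held RNA of tubule genes in every library. Such means lean on single markers with large differences. Differences of the 17 proximal tubule markers spanned -3.26 to 1.49, with a median of -0.28. Those of the 16 podocyte markers spanned -0.98 to 0.19, with a median of -0.31. In such bulk samples, fewer cells of a type and less RNA per cell cannot be told apart. Sample titles came in 2 styles, 5 beginning with G and 2 with CB6, and the CB6 titles belong to 1 knockdown and 1 control library. The deviations of this CB6 pair from their group means mirrored each other across genes (r = -0.96), and all p-values here would be too low had a batch adjustment come before deposit.

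The transcripts of the complexes were among the more abundant ones for their length. Because the deposited values rose with exon length across 12863 genes (Spearman's rho 0.309, as a description), levels are compared between genes only as log2 expression per kb of exon. On that scale the median subunit of complex IV lay at 11.7, that of complex III at 10.7, of complex II at 10.7, of complex V at 10.6 and of complex I at 9.70, while the median of the assembly factors was 7.41 and that of all genes 7.48. Atp5b, the catalytic beta subunit of ATP synthase (13.3 per kb), Uqcrb, a small complex III subunit (13.3 per kb), and Cox6c of complex IV (12.6 per kb) held the first 3 ranks of the 88, and the same genes held them with the median coding transcript length in place of the exon total. Ndufb2, an accessory subunit of complex I, ranked 88th by both lengths (5.12 per kb of exon). Its exon total was 4375 bases and its median coding transcript 2413 bases, for a coding sequence of 315 bases. Whether long annotated forms set this rank was not tested. Uqcrq, a small complex III subunit, ranked 87th (5.35) and Ndufab1, the mitochondrial acyl carrier protein, 86th (5.86). Per kb of transcript Uqcrq ranked 85th (7.21) and Ndufab1 78th (8.02).

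**Figure D1:**
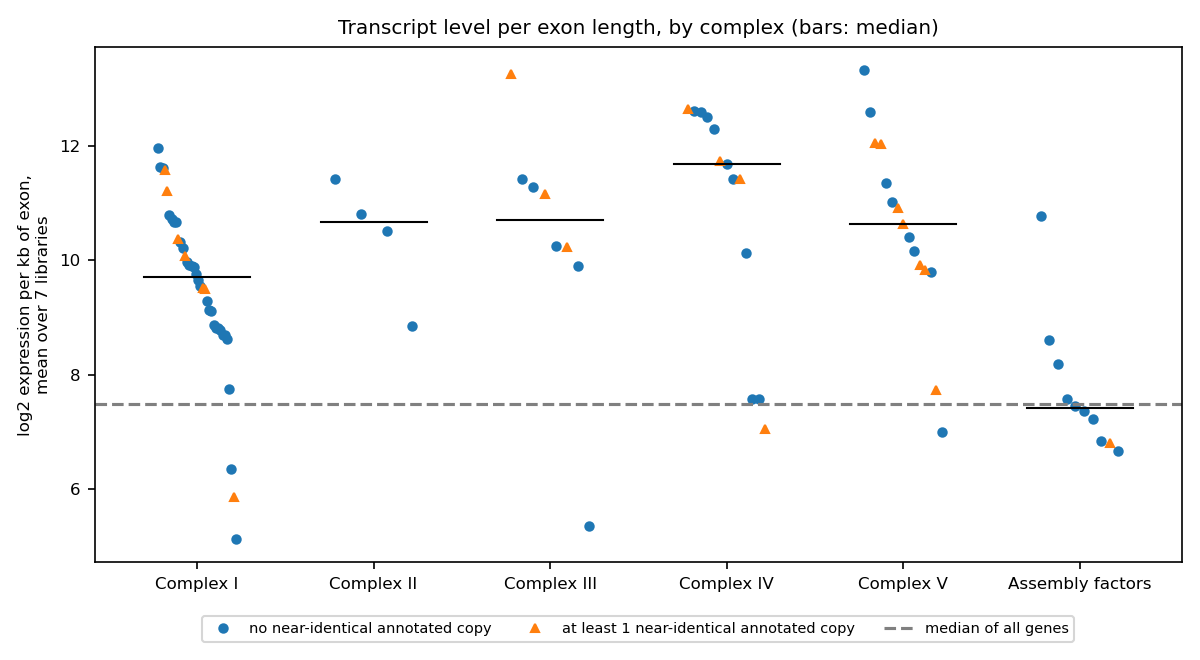
Log2 expression per kb of exon, as the mean over 7 libraries, for each subunit of complexes I to V and each assembly factor; triangles mark genes with a near-identical annotated copy, bars the median of each group and the dashed line the median of all genes (7.48). Complex IV has the highest median (11.7) and the assembly factors lie around the median of all genes.

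Many of these genes have processed copies elsewhere in the genome, which can take or lend reads. Searching each coding sequence against all annotated transcripts, at an identity of at least 95% over at least 80% of its length, gave at least 1 other gene for 22 of the 88 members. Atp5l, which encodes the g subunit of ATP synthase, had 8 such copies, Uqcrb and Atp5h had 3 each and Cox6c had 2. How the authors' counting treated such reads is not stated, so values of these 22 genes are less certain. The median difference was 0.033 for the 22 and 0.013 for the other 66, both close to the 0.024 of all genes.

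Promoters of these genes often carry letters bound by nuclear respiratory factor 1 (NRF1), a transcription factor known for driving respiratory chain genes, and RefSeq windows of 250 bases before to 50 after the start (GRCm38.p6) were found for 75 of the 88. The letters GCGCNTGCG, read on both strands, were in 26 of these 75 (34.7%), against 14.5% of the 10225 measured genes with a window and 7.12% of all 27025 genes with a window. Among the holders were 9 of 32 complex I subunits, 2 of 3 of complex II, 3 of 5 of complex III, 1 of 10 of complex IV and 8 of 14 of complex V. The following stretches of 60 bases, all upstream of the RefSeq start, show these letters and their surroundings. They are from the member with the smallest p of complexes I, II, IV and V that holds the letters there. The letters are in capitals, here in the reverse direction of the motif. In complex III no match lay before the start, and none of the other motifs searched here falls in these stretches. Counted from the RefSeq start, with -1 as the base before it, the letters begin at -97 in Ndufs5, -116 in Cox6a1 and -140 in Atp5h. The match nearest the RefSeq start of Sdha begins at -9. The GENCODE annotation starts Sdha at 74350280, inside the stretch shown, so that match lies within the GENCODE gene.
Ndufs5 (complex I, chr4:123718249-123718308, minus strand): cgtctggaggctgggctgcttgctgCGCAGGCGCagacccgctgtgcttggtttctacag
Sdha (complex II, chr13:74350241-74350300, minus strand): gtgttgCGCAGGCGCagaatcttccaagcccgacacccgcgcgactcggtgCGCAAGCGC
Cox6a1 (complex IV, chr5:115349040-115349099, minus strand): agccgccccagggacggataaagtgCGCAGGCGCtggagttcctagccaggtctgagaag
Atp5h (complex V, chr11:115420025-115420084, minus strand): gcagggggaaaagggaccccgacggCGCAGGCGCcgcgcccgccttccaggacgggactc

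The sequence of Sdha holds 2 matches in this stretch, the other three 1 each. The ETS letters CCGGAAG, bound by factors such as GABP, were in 19 of 75 members (25.3%) and 19.0% of measured genes. The letters of YY1, AAGATGGCG, were in 8 of 75 (10.7%), 5 of them complex I subunits, against 3.48% of measured genes. TCAAGGTCA, the letters of estrogen-related receptors, were in 2 of 75 (2.67%) and 0.264% of measured genes. Members with and without the NRF1 letters had median differences of 0.0083 and 0.027. For the ETS letters these medians were 0.030 and 0.012, and for the YY1 letters -0.093 and 0.027. For the letters of estrogen-related receptors, with 2 holders, they were -0.051 and 0.027. Whether members with and without any of these letters differed was not tested. These matches describe the letters only.

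In knockdown glomeruli, no gene of oxidative phosphorylation changed past the threshold. By limma with Benjamini-Hochberg adjustment over all genes, 0 of the 88 members had an adjusted p under 0.05, against 3.02% of all genes (0.996% higher and 2.02% lower in knockdown). An unadjusted p under 0.05 was reached by 5 members (5.68%), 3 of them higher and 2 lower, against 18.4% of all genes (9.77% higher and 8.67% lower). The knockdown and control libraries did not overlap for 1 member, Ndufb2, which was higher (1.14%), against 18.4% of all genes (10.8% higher and 7.55% lower). The members' differences were small and of both signs: 52 were positive and 36 negative, between -0.36 and 0.26, with a median of 0.017. The median size of a difference without its sign was 0.072 over the members and 0.110 over all genes. Of the 6479 genes in the upper part of the table by mean expression, to which 61 of the 88 belong, 20.7% had groups that did not overlap.

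A missed threshold does not show that levels were equal, so the intervals matter. The 95% confidence interval of the difference lay within 0.5 on either side of 0 for 77 of 88 members (87.5%) and for 73.6% of all genes. The median SE was 0.091 for the members and 0.104 for all genes. The 11 members whose interval reached past 0.5 were Ndufa1, Ndufs5, Ndufb6, Ndufab1 and Ndufa11 of complex I, Uqcr11 of complex III, Cox7c, Ndufa4l2 and Cox7a1 of complex IV, Atp5g1 of complex V and the assembly factor Ndufaf6. The widest was that of Cox7a1, the heart and muscle isoform of its subunit, from -0.81 to 0.73.

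**Figure D2:**
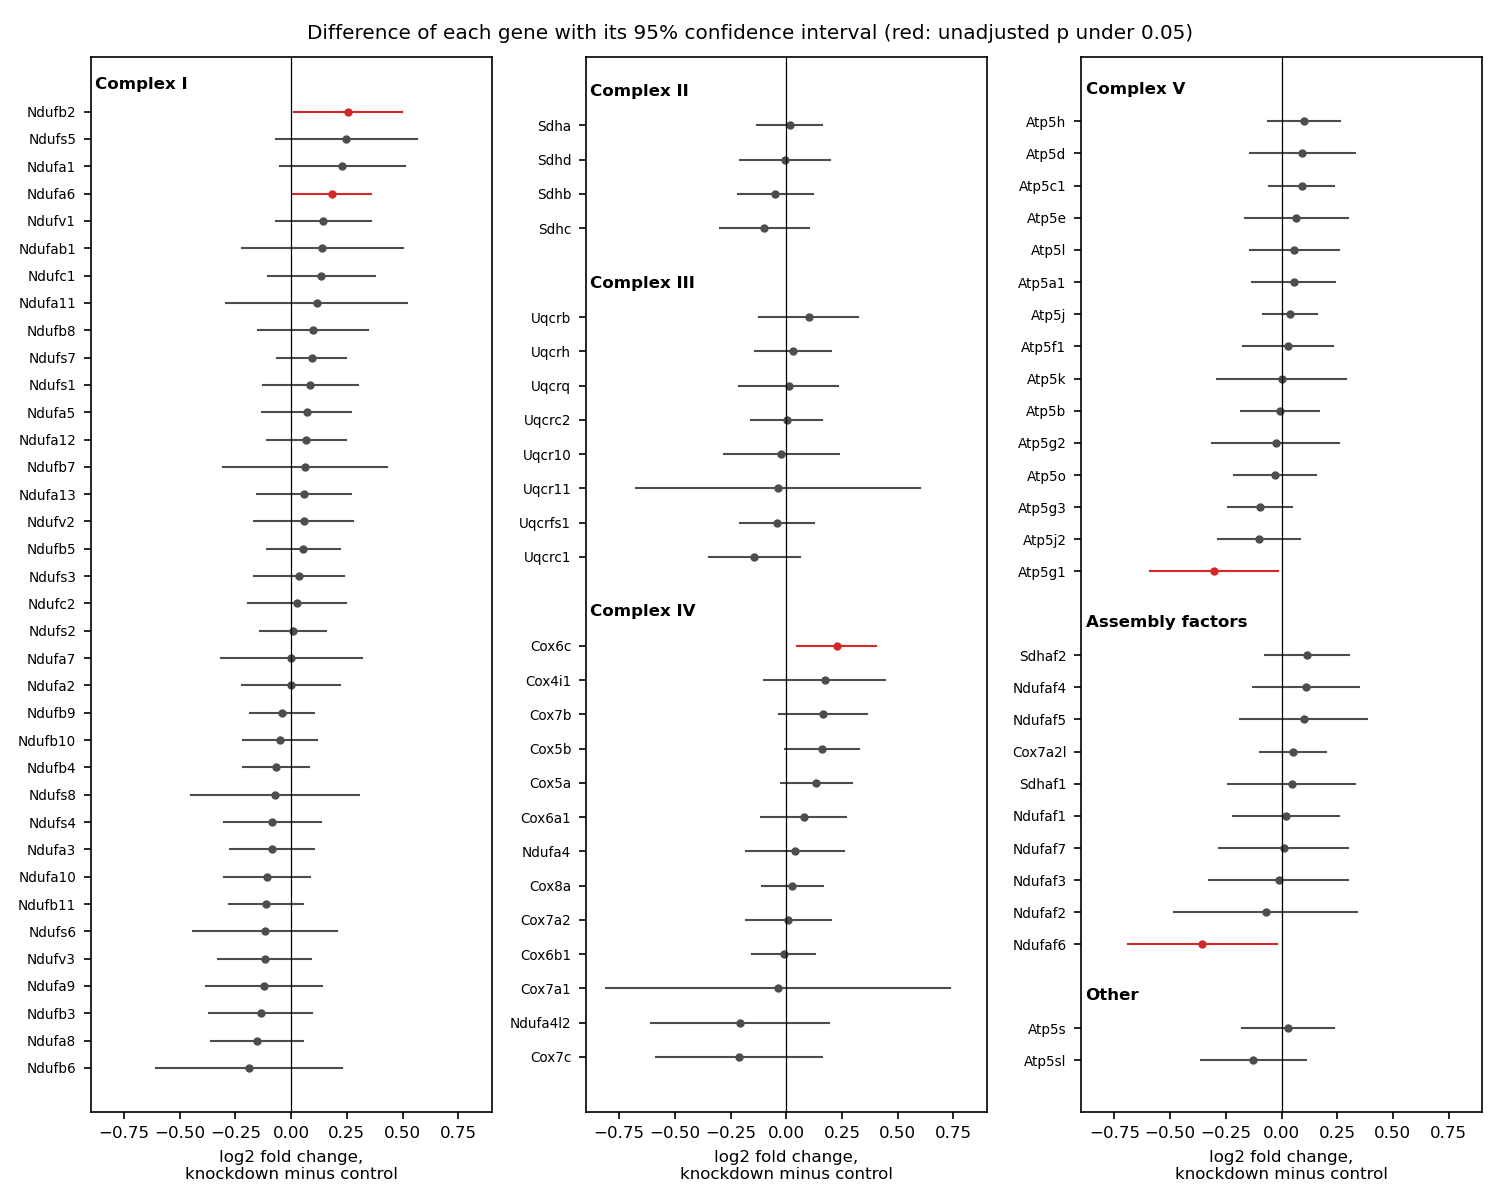
Log2 fold change, knockdown minus control, of each of the 88 genes with its 95% confidence interval, grouped by complex; red marks an unadjusted p under 0.05. Most intervals span 0 and lie within 0.5 of it, and the 5 red genes are Ndufb2, Ndufa6, Cox6c, Atp5g1 and Ndufaf6.

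**Figure D3:**
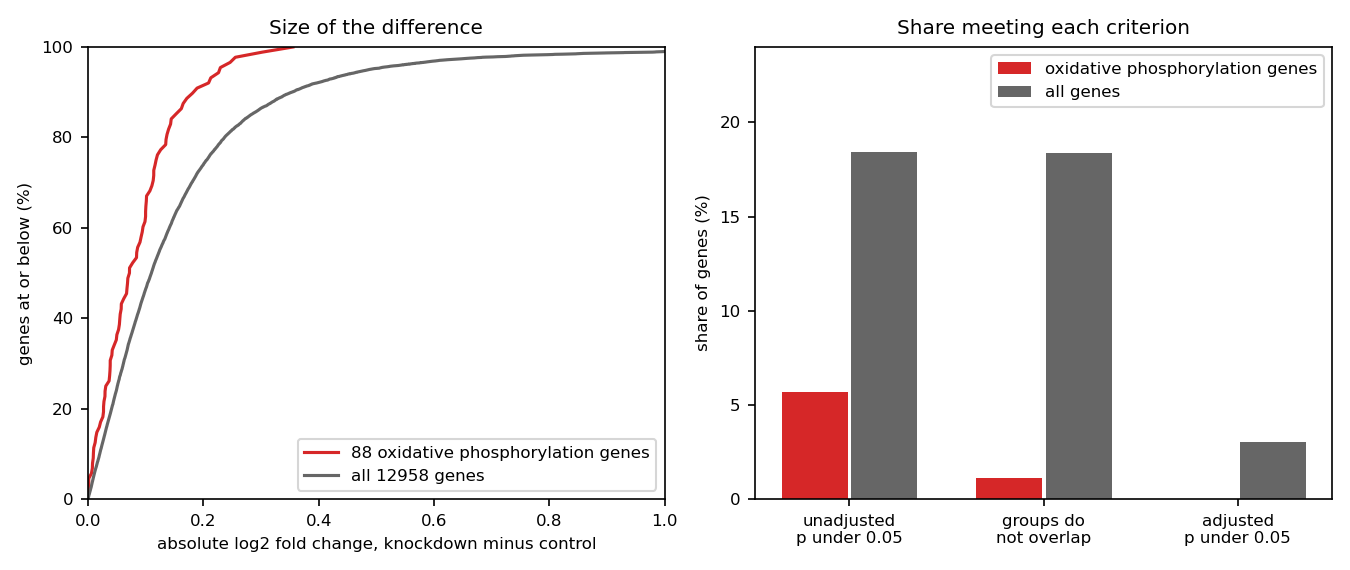
Left, the share of genes (%) with an absolute log2 fold change at or below the value on the x axis, for the 88 members and all 12958 genes; right, the share of genes (%) that meets each of 3 criteria. The members reach their largest difference at 0.36, and fewer of them meet each criterion (5.68%, 1.14% and 0%) than of all genes (18.4%, 18.4% and 3.02%).

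Complex I, the entry point for electrons from NADH, had a median difference of 0.031 over its 36 subunits, 21 positive and 15 negative. Its 7 catalytic core subunits, which hold the flavin and the iron-sulfur clusters, lay between -0.07 for Ndufs8 and 0.14 for Ndufv1. The 29 accessory subunits, which surround the core, had a median of 0.0010. Ndufb2 (chromosome 6, 39592574 to 39603382) stood at 7.49, 7.43 and 7.28 in the knockdown libraries, against 7.13, 7.20, 7.01 and 7.23 in the control libraries. Each knockdown library was above each control library, narrowly so for knockdown replicate 3 and control replicate 4. The log2 fold change was 0.26 (SE 0.11, adjusted p = 0.248 by limma, Benjamini-Hochberg), 0.35 within the libraries titled G and 0.04 within the CB6 pair.

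Ndufa6, another accessory subunit, stood at 11.28, 11.14 and 11.13 in the knockdown libraries, against 10.85, 11.14, 10.99 and 11.02 in the control libraries. Knockdown replicate 1 was highest, control replicate 1 lowest, and control replicate 2 lay within the knockdown range (log2 fold change 0.18 ± 0.08 SE; adjusted p = 0.257 by limma, Benjamini-Hochberg). Ndufa1, an accessory subunit encoded on the X chromosome, averaged 10.50 ± 0.14 across knockdown libraries (SD, n = 3), against 10.27 ± 0.22 across controls (SD, n = 4), with control replicate 1 far below the rest at 9.94. Ndufs1, the largest core subunit, averaged 11.87 ± 0.08 across knockdown libraries (SD, n = 3), against 11.78 ± 0.17 across controls (SD, n = 4), a difference of 0.09.

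Complex II, succinate dehydrogenase, is the one complex whose subunits are all encoded in the nucleus. Its flavoprotein Sdha stood at 13.00, 12.93 and 12.96 in the knockdown libraries, against 12.83, 13.06, 12.96 and 12.95 in the control libraries. The knockdown values lay inside the control range (log2 fold change 0.015, SE 0.064). The iron-sulfur subunit Sdhb differed by -0.05, and the membrane anchors Sdhc and Sdhd by -0.10 and -0.01; all 4 intervals lay within 0.5 of 0. None of the 4 had an adjusted p under 0.603 (limma, Benjamini-Hochberg).

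Complex III, which passes electrons from coenzyme Q to cytochrome c, was close to even, with 4 subunits positive and 4 negative and a median of -0.010. Uqcrc1, a core protein, averaged 10.54 ± 0.06 across knockdown libraries (SD, n = 3), against 10.68 ± 0.16 across controls (SD, n = 4) (log2 fold change -0.14 ± 0.09 SE; adjusted p = 0.438 by limma, Benjamini-Hochberg). The Rieske iron-sulfur protein Uqcrfs1 differed by -0.04 and Uqcrb by 0.10. A pair of genes outside the symbol rule belongs beside it: Cyc1, cytochrome c1 of complex III, differed by -0.17, and Cycs, cytochrome c itself, averaged 13.20 ± 0.11 across knockdown libraries (SD, n = 3), against 13.19 ± 0.13 across controls (SD, n = 4).

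Complex IV, cytochrome c oxidase, had the smallest p of the 88 genes and a median of 0.039, with 9 members positive and 4 negative. Cox6c (chromosome 15, 35925886 to 35938246), a small nuclear-encoded subunit, stood at 12.94, 12.98 and 12.87 in the knockdown libraries, against 12.63, 12.88, 12.58 and 12.73 in the control libraries. Control replicate 2 lay just inside the knockdown range and the other three controls below it. The log2 fold change was 0.23 (SE 0.08; limma, unadjusted p = 0.0187 and Benjamini-Hochberg adjusted p = 0.171), and without control replicate 2 its adjusted p was 0.0525, the smallest of any member in the settings tried. It was 0.26 within the libraries titled G and 0.14 within the CB6 pair. Cox5b and Cox5a, which sit beside the catalytic core, differed by 0.16 and 0.13 (limma, Benjamini-Hochberg adjusted p = 0.284 and 0.349).

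Several complex IV subunits come as isoforms for different tissues, and the tables held the widespread forms Cox4i1, Cox6a1, Cox6b1, Cox7a2 and Cox8a. They differed by 0.17, 0.08, -0.01, 0.01 and 0.03, and none of them passed. Of the heart and muscle forms, Cox7a1 stood at 6.97, 6.96 and 5.98 in the knockdown libraries, against 6.09, 6.90, 6.40 and 7.33 in the control libraries. Its libraries were spread widely in both groups, and the groups overlapped. The paralogs Ndufa4 and Ndufa4l2, the second known as a gene raised by low oxygen, differed by 0.04 and -0.21; Ndufa4l2 spanned 7.29 to 7.45 in knockdown and 7.09 to 7.82 in control libraries. Cox4i2, Cox6a2, Cox6b2 and Cox8b would meet the symbol rule but were not among the symbols measured. Cox7a2l, which helps join complexes III and IV, differed by 0.05.

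Complex V, the ATP synthase, had a median of 0.029, with 9 subunits positive and 6 negative. Its catalytic head held Atp5b, which had the highest level per kb of exon of all members. Per kb of transcript Atp5b (13.3) came after Cox6c (13.5). Atp5b stood at 14.19, 14.28 and 14.29 in the knockdown libraries, against 14.14, 14.40, 14.28 and 14.22 in the control libraries. The knockdown values lay inside the control range (log2 fold change -0.0076, SE 0.077). The 5 head subunits lay between -0.0076 and 0.09, and the 4 subunits of the peripheral stalk between -0.03 and 0.10, Atp5h among them at 0.10 (SE 0.07). The 6 measured subunits of the membrane part lay between -0.30 and 0.06.

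The c-ring of that membrane part is made of 1 protein that 3 genes encode with different import sequences. Atp5g1 (chromosome 11, 96068852 to 96075670) stood at 9.73, 9.84 and 9.98 in the knockdown libraries, against 9.86, 10.31, 10.36 and 10.07 in the control libraries. Control replicate 1 lay inside the knockdown range and the other three controls above it. The log2 fold change was -0.30 (SE 0.13, adjusted p = 0.244 by limma, Benjamini-Hochberg), -0.39 within the libraries titled G and -0.09 within the CB6 pair. The sister genes Atp5g2 and Atp5g3 differed by -0.03 and -0.10 (limma, Benjamini-Hochberg adjusted p = 0.938 and 0.465). Whether Atp5g1 differed more than these was not tested.

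The 10 assembly factors had a median of 0.033, and Ndufaf6 had the most negative difference of all members. Ndufaf6 (chromosome 4, 11051045 to 11076205), needed to build complex I, stood at 6.80, 6.79 and 6.62 in the knockdown libraries, against 7.18, 7.21, 6.73 and 7.25 in the control libraries. Control replicate 3 fell among the knockdown values, far below the other three controls. The log2 fold change was -0.36 (SE 0.15, adjusted p = 0.243 by limma, Benjamini-Hochberg), -0.25 within the libraries titled G and -0.63 within the CB6 pair. Without control replicate 3 its adjusted p was 0.0697, so it did not pass there either. Sdhaf2, which loads the flavin of Sdha, and Ndufaf4 both differed by 0.11, and the rest lay between -0.07 and 0.10.

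Beyond the 88, 209 genes of related lists were compared, and 2 of the 209 passed, against 3.02% of all genes. The lists cover other chain genes (7), assembly of complexes I, III, IV and V outside the rule (8, 5, 19 and 3), coenzyme Q synthesis (13), regulators of mitochondrial gene expression (18), the tricarboxylic acid cycle (14), import and carriers (29), glycolysis (15) and the mitochondrial ribosome (78). Of these, 21 (10.05%) had an unadjusted p under 0.05, against 18.4% of all genes. None of the 14 tricarboxylic acid cycle genes did, with a median of 0.0075, nor any of the 8 complex I assembly genes. No symbol beginning with mt-, the prefix of mouse genes of the mitochondrial genome, was among the 12958 symbols.

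The regulator that passed was Ppargc1a, which encodes PGC-1alpha, a coactivator known for raising the expression of mitochondrial genes. Ppargc1a (chromosome 5, 51454250 to 51567726) stood at 12.67, 12.86 and 12.74 in the knockdown libraries, against 12.32, 12.53, 12.36 and 12.35 in the control libraries. All knockdown libraries were above all control libraries. It rose by 0.37 (SE 0.07, adjusted p = 0.0340 by limma, Benjamini-Hochberg), 0.36 within the libraries titled G and 0.39 within the CB6 pair. By limma with Benjamini-Hochberg adjustment, the call was lost with title style as a covariate (adjusted p = 0.0802; 1.47% of all genes passed there), without an intensity trend (0.0641) and in the libraries titled G alone (0.309). It held without control replicate 2 (adjusted p = 0.0165) and was lost without each of the other libraries (0.0608 to 0.145), at log2 fold changes of 0.31 to 0.41. In the main fit 2.02% of all genes passed as lower and 0.996% as higher. There 6 of 17 proximal tubule markers fell and 1 rose, and 4 of 16 podocyte markers fell. Of 9 markers of the thick limb and distal nephron, 2 rose. The means of those 9 spanned 12.5 to 12.8 in knockdown and 12.1 to 12.6 in control libraries. The part of these cell types in the differences of Ppargc1a and Timm10 was not tested.

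The transcription factors that work with PGC-1alpha did not pass. Gabpa, the DNA-binding subunit of GABP, stood at 11.51, 11.40 and 11.40 in the knockdown libraries, against 11.30, 11.30, 11.23 and 11.29 in the control libraries. Each knockdown library of Gabpa was above each control library, as for 10.8% of all genes. Its adjusted p was 0.161 (log2 fold change 0.15, SE 0.05, by limma, Benjamini-Hochberg). Nrf1, Tfam and Esrra, which encode NRF1, the mitochondrial transcription factor A and estrogen-related receptor alpha, differed by 0.16, 0.07 and 0.0071. The 95% confidence interval of Esrra was wide, from -0.59 to 0.60. The related receptor genes Esrrb and Esrrg differed by 0.29 and 0.21 (limma, unadjusted p = 0.032 and 0.043, Benjamini-Hochberg adjusted p = 0.220 and 0.252). Esrrb and Esrrg were named after their values were seen. Of the 18 regulators, 14 were positive, with a median of 0.070, and 4 had an unadjusted p under 0.05, all higher, against 9.77% of all genes higher at that p.

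The other gene that passed was Timm10, which encodes a small chaperone for proteins entering the inner membrane. Timm10 (chromosome 2, 84826997 to 84830213) stood at 5.79, 6.03 and 5.92 in the knockdown libraries, against 6.59, 6.83, 6.70 and 6.85 in the control libraries. Every knockdown library was well below every control library. It fell by 0.83 on the log2 scale (SE 0.12; limma, Benjamini-Hochberg adjusted p = 0.00872), with -0.80 within the libraries titled G and -0.92 within the CB6 pair. Timm10 also passed with title style as a covariate (adjusted p = 0.0296) and without each library in turn, but not in the libraries titled G alone (adjusted p = 0.118, limma, Benjamini-Hochberg). The partner Timm9 and the other carriers of that list did not pass; over its 29 genes the median was -0.053.

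**Figure D4:**
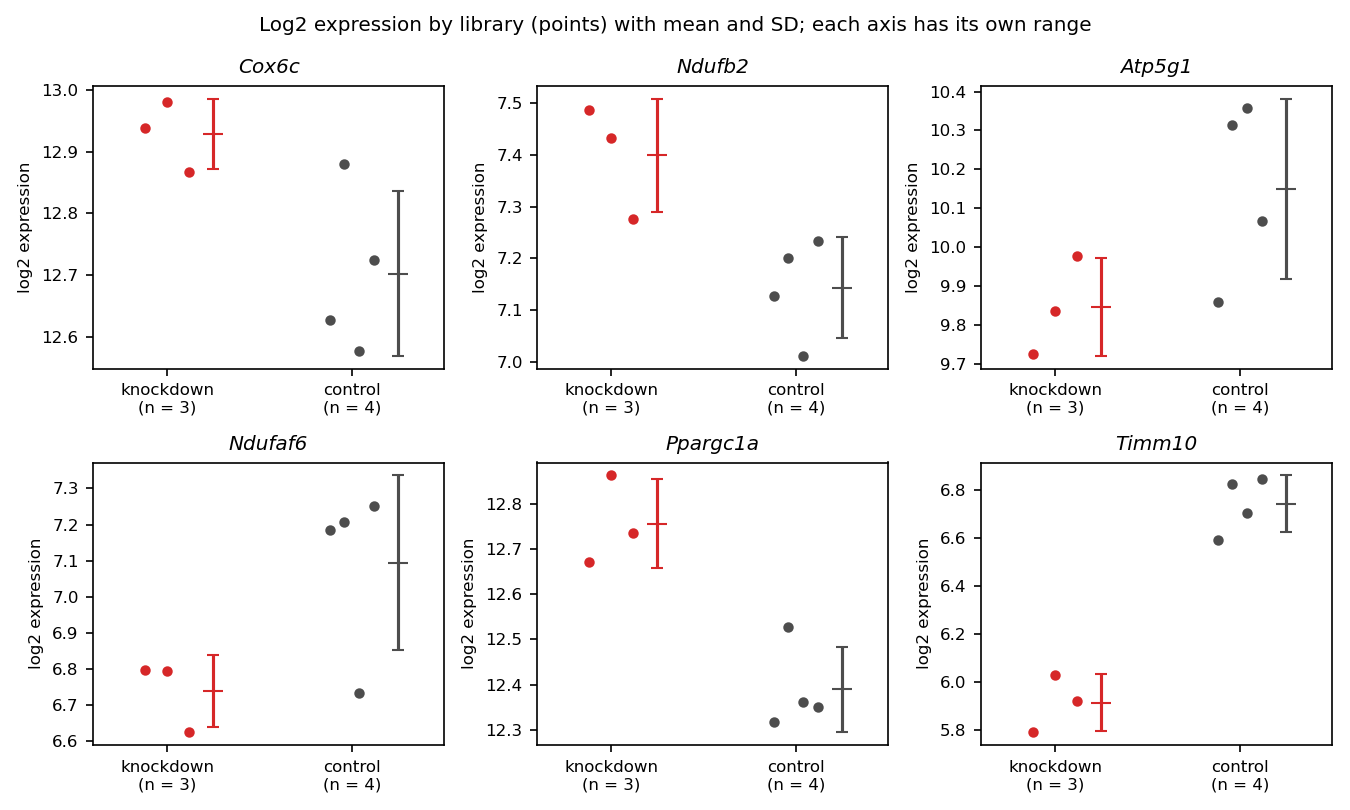
Log2 expression of 4 members, the coactivator gene Ppargc1a and the import gene Timm10 in the 3 knockdown and 4 control libraries (points), with the mean and SD beside them; each panel has its own axis range. The groups overlap for Cox6c, Atp5g1 and Ndufaf6 and do not overlap for Ndufb2, Ppargc1a and Timm10.

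The libraries of a group differed from each other more than the groups did, and the complexes moved together in this. The mean over the 88 genes was 10.002, 9.936 and 9.948 in the knockdown libraries, against 9.840, 10.049, 9.955 and 9.965 in the control libraries. Control replicate 1 was thus the lowest and control replicate 2 the highest of all 7, and the knockdown libraries lay between them. The knockdown mean was thus 9.962 ± 0.035 (SD, n = 3), against a control mean of 9.952 ± 0.086 (SD, n = 4). Control replicate 1 was the lowest control for 51 of 88 genes (58.0%), against 26.0% of all genes, and control replicate 2 the highest for 54 of 88 (61.4%), against 28.2% of all genes. These libraries were singled out after their values were seen.

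A like order was seen in each complex. Control replicate 1 was the lowest control by the mean of complexes I to V, at 0.11 to 0.16 below the control mean, and control replicate 2 was the highest control for complexes I, II, IV and V and a little below control replicate 3 for complex III. The assembly factors differed: their lowest control was replicate 3, and knockdown replicate 1 was the highest knockdown library for 10 of 10 of them, against 36.6% of all genes. Outside the chain, control replicate 1 was also the lowest control for 11 of 14 tricarboxylic acid cycle genes and for 15 of 15 glycolysis genes.

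Cell type markers also differed between these libraries. Control replicate 1 had the highest podocyte marker mean of all libraries (13.2) and the lowest proximal tubule mean of the controls (13.4). Control replicate 2 had the lowest podocyte mean of the controls (12.8), with a proximal tubule mean of 13.7. The knockdown libraries had lower proximal tubule means than any control (12.8 to 13.2) at means of the 88 genes inside the control range. Markers of the thick limb and distal nephron went the other way. Their means were 12.49, 12.78 and 12.78 in the knockdown libraries, against 12.09, 12.44, 12.64 and 12.20 in the control libraries. Control replicate 1 was the lowest library here. Of these 9 markers, 8 had positive differences, with a median of 0.32. Of the other markers, 0 of 12 endothelial ones passed, with group means of 12.17 in knockdown and 12.44 in control libraries. All 12 had negative differences, with a median of -0.23. An unadjusted p under 0.05 (limma) was reached by 4 of the 12, against 8.67% of all genes lower at that p. Among mesangial markers 2 of 10 fell past the threshold, against 2.02% of all genes. The part of these markers in the levels of the chain genes was not tested.

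**Figure D5:**
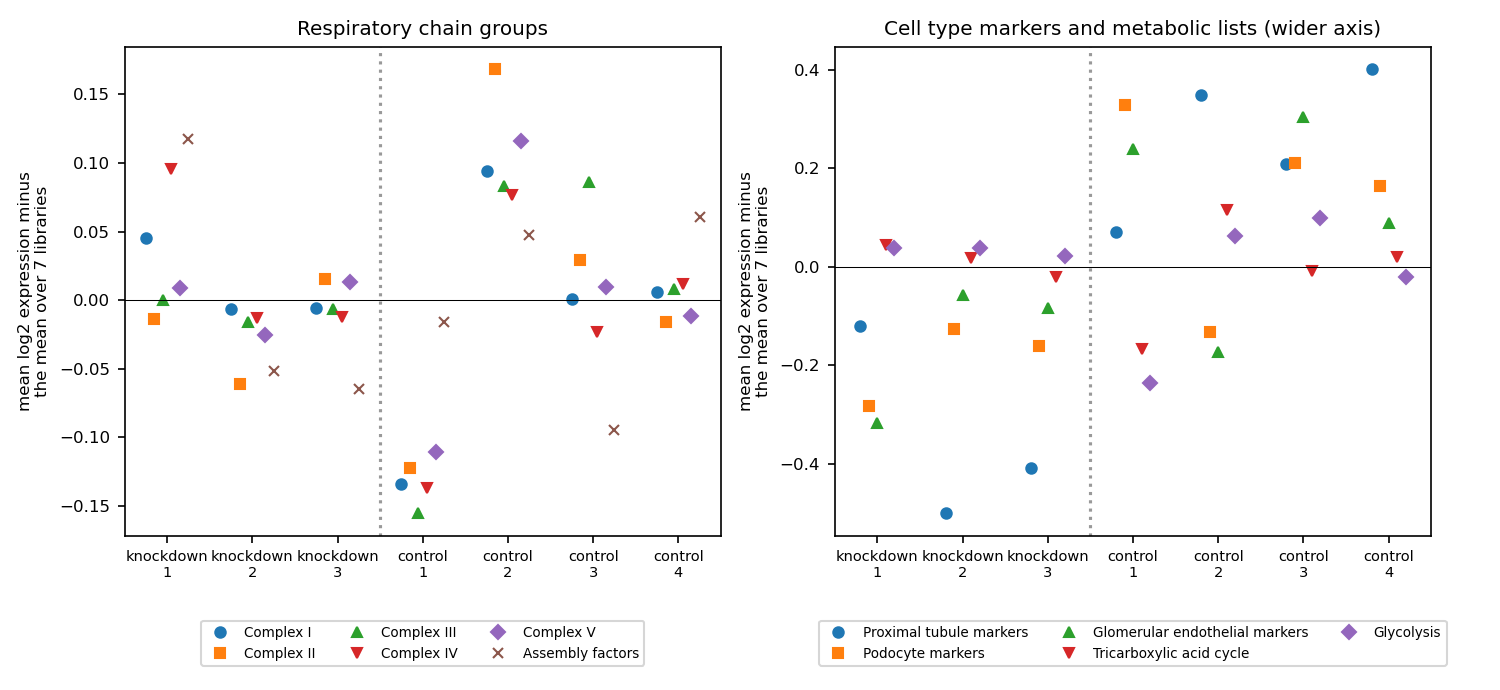
Left, the mean log2 expression of each complex and of the assembly factors in each library, minus the mean over the 7 libraries; right, the same for marker lists and metabolic lists, on a wider axis. Knockdown libraries stand left of control libraries, and the 5 complexes are lowest in control 1 and high in control 2.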

How the data were processed

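Each of the 7 libraries has a table that the authors deposited, which pairs gene symbols with log-scale values, taken as log2. Their base is not stated, and another base would scale all differences by a constant. Reads were aligned with BWA to mm10, per the submitters' processing notes. How reads were counted and normalized, and whether strand was used, is not given in the sources used here. Depth is unknown, so tests for counts were not used.

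Knockdown (n = 3) was compared with control (n = 4) in limma 3.58.1 (R 4.3.3), with a trend of variance on intensity, over all 12958 genes. P-values were adjusted by Benjamini-Hochberg, with 0.05 as the threshold. All 12958 genes lay above the lowest table value in 3 or more libraries, so none was filtered out. Unadjusted p-values quoted are from the same fit. In the libraries titled G, 107 genes differed only by constant library offsets (within 0.003); 0 members were among them.

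Symbols were matched to GENCODE release M21 (GRCm38, the same build as mm10), where all 88 members were found, and copies were searched with BLAST+ 2.17.0. Exon length is the union of basic exons. Promoter sequences are from RefSeq, GRCm38.p6. The letters searched for NRF1 and YY1 were shortened to 9 bases after longer forms had been searched. Genes described singly are Shroom3; the 3 members with the smallest p and the 1 with the highest mean in each complex and among assembly factors; the isoform families; up to 2 genes past the threshold in each related list; and Cycs, Cyc1, Ppargc1a, Esrra, Nrf1, Gabpa and Tfam. Other genes are named as examples or extremes, or at the edge of a count. The members and lists were chosen with earlier results of these data known. The fit was checked on simulated data with independent libraries. These held no mirrored CB6 pair, so the check does not cover that feature of the data. P-values rest on the spread between these 7 animals as deposited and treat the libraries as independent. The CB6 pair mirrored each other across genes (r = -0.96), and p-values would be too low had a batch adjustment come before deposit.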

Additional observations from a re-analysis of the deposited data

Results flagged for a closer look

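In the control group, 4 of 46 results tested had a library that stood far from the other three by Dixon's test for 4 values (critical ratio 0.829), which chance gives in about 5% of groups. Ndufa1 was lowest in control replicate 1 (9.94), Ndufaf6 was lowest in control replicate 3 (6.73), Cox7a2 was highest in control replicate 2 (11.01) and Nrf1 was lowest in control replicate 2 (8.46). Over all 88 members 3 were set apart in this way (3.41%), against 5.71% of all genes.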

How the results depend on the processing

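The count of members past the threshold was 0 in each alternative: an adjusted p of 0.1, subunits only, each library left out, the libraries titled G alone, title style as a covariate, a fit with no trend, fill-in genes left out, the upper 75% of genes by mean, no filter, median scaling and quantile normalization. The smallest adjusted p of a member ranged from 0.0525 (Cox6c, without control replicate 2) to 0.456 (Ndufb2, libraries titled G only; limma, Benjamini-Hochberg). Members with an unadjusted p under 0.05 numbered 0 to 7. The median difference of each complex moved by less than the SD of its library means pooled over both groups, but often by more than the smaller SD of the knockdown libraries, and most signs were not stable. Over the alternatives it spanned -0.017 to 0.059 for complex I (reported as 0.031), -0.074 to 0.029 for II (reported as -0.028), -0.046 to 0.032 for III (reported as -0.010), 0.0047 to 0.11 for IV, -0.0070 to 0.070 for V (reported as 0.029), -0.043 to 0.077 for the assembly factors (reported as 0.033) and -0.0094 to 0.057 for all members. Without control replicate 1 the medians of complexes I and V and of all members were negative; without control replicate 2 those of II and III were positive.

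Over all genes, 129 were higher and 262 lower; title style as a covariate gave 44 and 147, the libraries titled G alone 14 and 26, an adjusted p of 0.1 gave 348 and 498, and leaving out each library gave 31 to 163 higher and 103 to 317 lower. Of the related lists, 2 genes passed; 1 passed with the upper 75% of genes, no trend or title style as a covariate, 0 in the libraries titled G alone, and 1 to 2 with a library left out. The causes were not tested, except that the upper 75% of genes leaves out Timm10. Of 551 values of named genes that had not passed, 0 passed in an alternative and 37 had the other sign. No paired analysis was possible because the titles share no animal or replicate number between groups; the replicate numbers used here follow the order of deposit and only name libraries. Depth is unknown, so what it limits cannot be given.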

Other observations

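Glycolysis, the cytosolic route to ATP, held genes of both directions, none past the threshold. Of 15 genes, 10 were positive and 5 negative, with a median of 0.079. Pkm, pyruvate kinase, averaged 13.12 in knockdown and 12.79 in control libraries (log2 fold change 0.33, adjusted p = 0.234 by limma, Benjamini-Hochberg), while Ldha, lactate dehydrogenase A, averaged 11.47 in knockdown and 11.66 in control libraries (log2 fold change -0.20, adjusted p = 0.197 by limma, Benjamini-Hochberg) and Pgk1 differed by -0.17. For Ldha and Pgk1 each knockdown library was below each control library, as for 7.55% of all genes. These genes were named after their values were seen.

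Among the carriers, the adenine nucleotide translocase genes differed in opposite directions without passing. Slc25a4 averaged 10.89 in knockdown and 11.11 in control libraries (log2 fold change -0.22), and Slc25a5 averaged 13.31 in knockdown and 13.08 in control libraries (log2 fold change 0.22), and their adjusted p was 0.186 and 0.239 by limma with Benjamini-Hochberg adjustment. The assembly gene Uqcc1 of complex III averaged 9.09 in knockdown and 9.40 in control libraries (log2 fold change -0.32, adjusted p = 0.0786 by limma, Benjamini-Hochberg), with groups that did not overlap. Coq8a, a kinase-like protein of coenzyme Q synthesis, differed by -0.27 (adjusted p = 0.182 by limma, Benjamini-Hochberg), and its groups did not overlap either. For Uqcc1 and Coq8a each knockdown library was below each control library, as for 7.55% of all genes. All 4 genes were named after their values were seen.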
